A study of Homo sapiens with 8 samples.

Results

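The 10 genes described here encode receptors, receptor substrates and binding proteins of the insulin and insulin-like growth factor (IGF) system. They are INSR, IGF1R, IGF2R, IRS1, IRS2, IGFBP2, IGFBP3, IGFBP4, IGFBP5 and IGFBP7, and all 10 were found by gene symbol among the 34415 genes of the deposited table. RNA of TeloHAEC was sequenced in 4 estradiol libraries and 4 control libraries. TeloHAEC is an endothelial line derived from human aortic endothelial cells and immortalized. Both groups are labelled wild type and, by their titles, were grown with palmitic acid, so no group without it can be compared here. The sample field for treatment reads PA-supplied for the estradiol libraries and Control for the others, and the groups below follow the titles. No dose or exposure time is stated in the labels. Whether the replicates were separate cultures is not stated either, so p-values cover the spread between libraries, some or all of which may be technical. All cells are of 1 line.

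Insulin and the IGFs bind the receptor tyrosine kinases INSR and IGF1R, which phosphorylate the docking proteins IRS1 and IRS2, which in turn recruit PI3-kinase and lead to AKT and FOXO. In endothelial cells this route activates the nitric oxide synthase. IGF2R, which has no kinase, removes IGF2 from the cell surface and carries lysosomal enzymes that bear mannose 6-phosphate. Binding proteins are secreted and hold IGFs outside the cell. IGFBP7 binds IGFs weakly and is a secreted protein of vessel walls.

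Of the paralogs IRS1 and IRS2, IRS1 was close to 0 reads and IRS2 was not, and the 250 bases before their RefSeq start sites (GRCh38.p14, gene strand) are shown for that reason. IRS1 lies at chr2:226799821-226800070 and IRS2 at chr13:109786584-109786833, both on the minus strand. Capitals mark the GC box GGGCGG and the insulin response core CAAAACA, a motif bound by FOXO factors, each on either strand.
IRS1: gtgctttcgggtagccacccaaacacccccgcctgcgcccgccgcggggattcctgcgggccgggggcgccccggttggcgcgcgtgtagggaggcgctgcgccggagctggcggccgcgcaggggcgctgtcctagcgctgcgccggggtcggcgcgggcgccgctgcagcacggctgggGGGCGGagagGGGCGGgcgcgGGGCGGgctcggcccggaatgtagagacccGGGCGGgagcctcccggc
IRS2: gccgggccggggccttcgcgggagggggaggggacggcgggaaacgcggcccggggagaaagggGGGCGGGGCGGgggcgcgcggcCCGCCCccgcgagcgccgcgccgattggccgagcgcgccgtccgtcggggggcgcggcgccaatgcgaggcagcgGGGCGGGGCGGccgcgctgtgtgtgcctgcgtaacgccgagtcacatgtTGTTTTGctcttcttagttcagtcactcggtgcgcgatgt
GC boxes occurred 4 times in the IRS1 window, 69, 59, 48 and 18 bases before the start. They occurred 5 times in the IRS2 window, at 186, 181, 164, 89 and 84 bases, with 2 pairs of them overlapping. The core CAAAACA occurred in the IRS2 window, on the reverse strand 40 bases before the start, and these letters are not in the IRS1 window. Of 35116 RefSeq promoters cut to the same length, 42.6% held a GC box and 4.30% the core CAAAACA. The FOXO core GTAAACA and the TATA box TATAAA were also searched for and occurred in neither window. Of the same promoters 2.98% held the FOXO core and 10.7% the TATA box. Both windows were rich in CpG, with 39 in IRS1 and 42 in IRS2, more than in 97.3% and 98.6% of the promoters. A match describes the letters and is not evidence of binding. RefSeq promoter entries were matched for 9 of the 10 genes, all but IGFBP7.

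Levels of the 10 genes spanned from IGFBP7, among the most abundant transcripts of the cells, to IRS1, which was close to 0. Levels are in FPKM, fragments per kilobase of transcript scaled to the fragments of each library, so they can be set beside each other between genes. Over the 8 libraries IGFBP7 averaged 102 ± 5.74 FPKM (SD, n = 8), higher than 97.8% of the 23471 genes with any read. IGFBP3 averaged 38.1 ± 2.40, IGFBP4 29.005 ± 4.28, IGF2R 14.0 ± 1.99 and IRS2 2.48 ± 0.239 FPKM. The other 5 genes averaged under 1 FPKM, with INSR at 0.550 ± 0.0955, IGF1R at 0.544 ± 0.1004, IGFBP5 at 0.403 ± 0.0704, IGFBP2 at 0.316 ± 0.122 and IRS1 at 0.00584 ± 0.00610 FPKM (SD, n = 8).

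**Figure D1:**
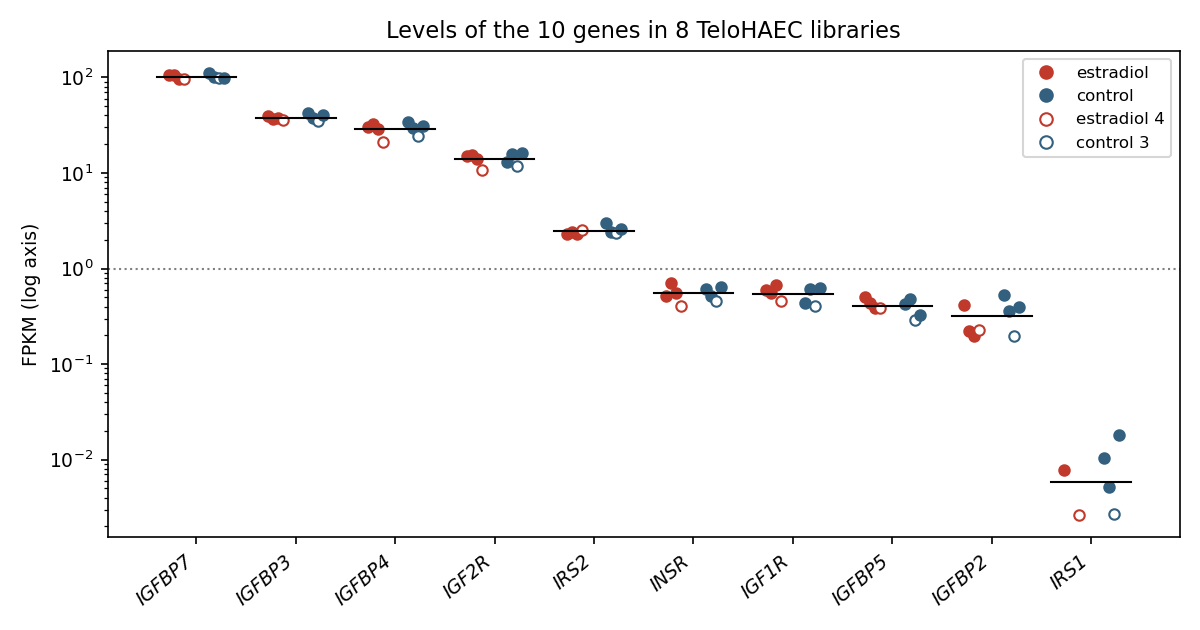
FPKM (log axis) of the 10 genes in order of mean level, 1 point per library, with estradiol to the left of control and open points for estradiol replicate 4 and control replicate 3; the black line is the mean of the 8 libraries and the dotted line 1 FPKM. Estradiol replicates 2 and 3 had 0 IRS1 reads and cannot be drawn on this axis. From IGFBP7 to IRS2 no 2 genes share a range, while INSR, IGF1R, IGFBP5 and IGFBP2 lie together between 0.196 and 0.698 FPKM.

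Of the 9 pairs of neighbours in this order, 7 differed in a two-sided exact sign-flip permutation test over the 8 libraries (adjusted over the 9 pairs, p = 0.0100 for each of the 7, from a raw p of 0.0078, the smallest this test can give). INSR and IGF1R did not differ beyond their spread, with INSR higher in 4 of 8 libraries (exact permutation adjusted p = 0.875), and neither did IGFBP5 and IGFBP2, with IGFBP5 higher in 6 of 8 (exact permutation adjusted p = 0.0703). IGF1R was above IGFBP5 in 8 of 8 libraries although their ranges overlapped. The order was set from the same libraries, and the test does not cover errors that a gene carries in every library, such as the length assigned to it. In the 4 control libraries alone the order was the same, and in the 4 estradiol libraries INSR and IGF1R changed places.

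The labelled cell type was checked against markers in the same libraries. Of 10 endothelial markers 9 reached a mean of 1 FPKM, VWF being the exception, with a summed level of 427 to 558 FPKM in estradiol and 429 to 579 FPKM in control libraries. No fibroblast marker of 6 reached that level (sums of 0.155 to 0.253 FPKM in estradiol and 0.188 to 0.263 FPKM in control libraries), and LUM was at 0. Of 6 smooth muscle markers ACTA2 and TAGLN did (sums of 14.0 to 22.2 FPKM in estradiol and 15.02 to 21.2 FPKM in control libraries), with DES at 0. Of 6 macrophage markers CD68 and LAPTM5 did (81.6 to 93.9 FPKM in estradiol and 78.7 to 96.4 FPKM in control libraries), and of 5 epithelial markers KRT8, KRT18 and KRT19 (81.6 to 110 FPKM in estradiol and 79.9 to 124 FPKM in control libraries). The sums of the 2 groups overlapped for all 5 lists. Library depth, as reads recovered from the FPKM steps, was 33421051 to 39899258. Estradiol replicate 4 and control replicate 3 stood apart from the other 6 libraries on the first principal component, which held 68.7% of the variance, and differences of the members between the groups are also given in the other 6 libraries and within that pair.

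None of the 5 members that could be tested with limma was called between estradiol and control, and none of the other 5 reached an unadjusted p under 0.05. In the limma test of 10720 genes with a mean of at least 1 FPKM, 0.0% were called at an adjusted p under 0.05 (0 genes, smallest adjusted p 0.999989), and 0 of the 5 members that could enter it. Before adjustment 26 genes had a p under 0.05, which is 0.243% of those tested, and none of them was a member. With limma-voom on the recovered reads the counts were 0 after and 22 before adjustment. With a batch term for estradiol replicate 4 and control replicate 3 they were 0 after and 351 before adjustment. Without those libraries they were 0 after and 416 before adjustment. Each of these fits covered the same 10720 genes. By chance alone a share of 0.05 of genes is expected at an unadjusted p under 0.05, and all these counts were below it. Without the filter limma called 0.0% of 23471 genes after adjustment (smallest adjusted p 0.0809), and 1.86% had an unadjusted p under 0.05, with 0 of the 10 members among them. The 5 members under 1 FPKM were compared by exact permutation, two-sided, with all 70 ways to relabel the libraries. The smallest p this test can give is 0.0286, which could pass after adjustment only if most of the 12751 such genes reached it, so the 0.0% called there was set by the design. Unadjusted, 1.51% reached an unadjusted p under 0.05, at which the groups do not overlap. None of the 5 members did, and the groups overlapped for all 10 genes, against 0.532% of genes without overlap among those tested with limma. In bulk samples a different share of cells with a transcript and a different amount of it per cell cannot be told apart.

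**Figure D2:**
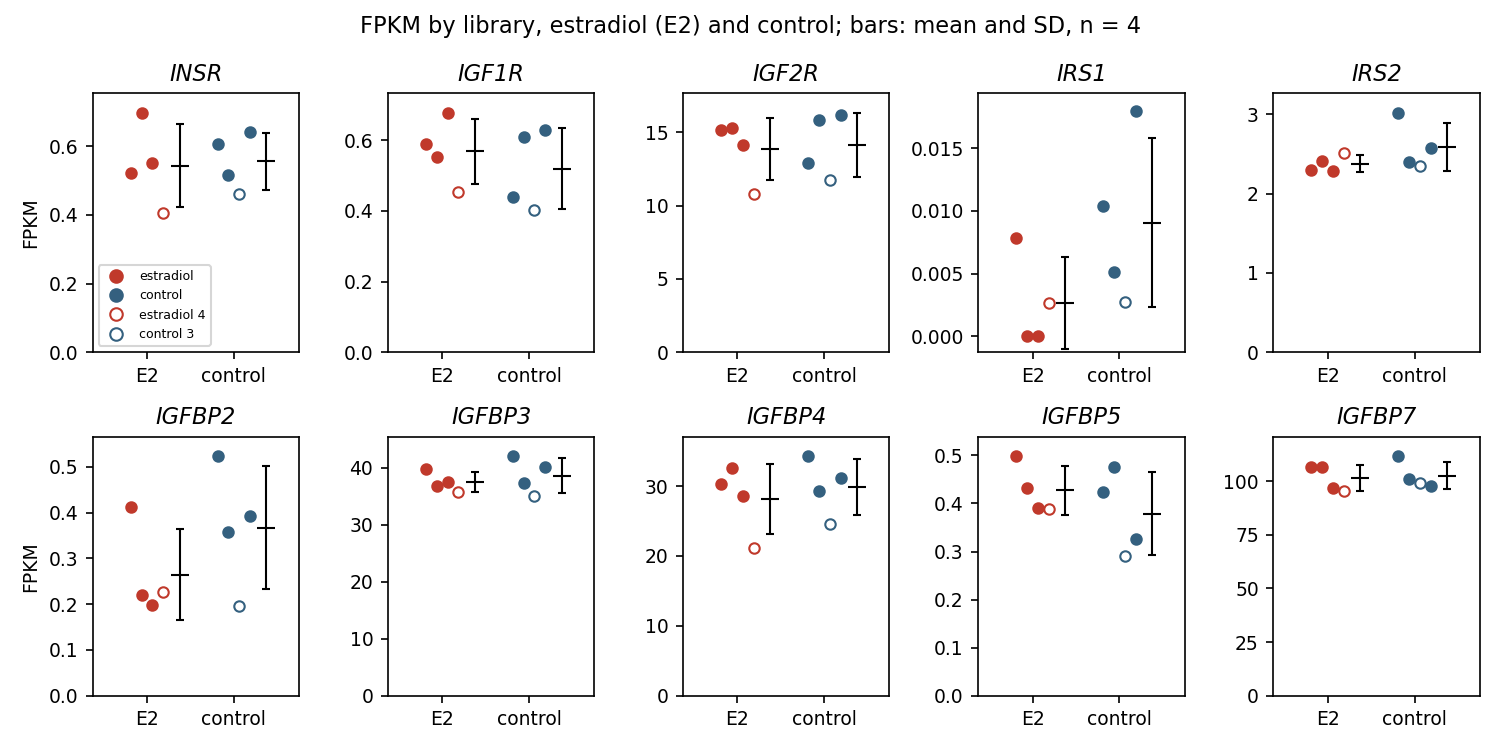
FPKM of each gene by library, estradiol (E2) left and control right, with the mean and SD of each group (n = 4); open points are estradiol replicate 4 and control replicate 3, and every FPKM axis includes 0. The groups overlap in all 10 panels, and the open points are the lowest of their group for INSR, IGF1R, IGF2R, IGFBP3, IGFBP4 and IGFBP5.

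The tyrosine kinase receptors were both under 1 FPKM in every library. INSR, the insulin receptor, stood at 0.522, 0.698, 0.550 and 0.406 FPKM in estradiol libraries 1 to 4, against 0.607, 0.516, 0.462 and 0.640 FPKM in control libraries 1 to 4, from 149 to 242 reads per library. Its highest and lowest values were both estradiol libraries, and the means were 0.544 ± 0.1202 FPKM with estradiol and 0.556 ± 0.0821 FPKM in control (SD, n = 4 each; exact permutation p = 0.943). The difference, estradiol minus control, was -0.0121 FPKM over all 8 libraries, 0.00244 FPKM in the 6 libraries without the pair that stands apart and -0.0559 FPKM within that pair. IGF1R, which binds both IGFs, stood at 0.590, 0.553, 0.679 and 0.454 FPKM with estradiol, against 0.440, 0.608, 0.402 and 0.628 FPKM in control, from 202 to 358 reads. Its means were 0.569 ± 0.0929 FPKM with estradiol and 0.520 ± 0.115 FPKM in control (SD, n = 4 each; exact permutation p = 0.571). The difference was 0.0493 FPKM over all libraries, 0.0483 in the 6 and 0.0523 within the pair. Without a filter on low values, limma put the log2 fold change between -0.17 and 0.14 for INSR and between -0.11 and 0.20 for IGF1R (95% intervals), on a log2(FPKM + 1) scale that understates changes of low genes.

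The ratio of INSR to IGF1R, which are known to form hybrid receptors, was close to 1 in both groups. It averaged 0.963 ± 0.202 in estradiol and 1.10 ± 0.224 in control libraries (SD, n = 4 each), with a range of 0.810 to 1.26 against 0.847 to 1.38. These ranges overlapped, and no test was made on ratios.

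IGF2R was the dominant receptor transcript. It stood at 15.2, 15.3, 14.2 and 10.8 FPKM in estradiol libraries 1 to 4, against 12.9, 15.8, 11.7 and 16.2 FPKM in control libraries 1 to 4, from 5887 to 9072 reads. Estradiol replicate 4 and control replicate 3 were the lowest of their groups. The means were 13.9 ± 2.10 FPKM with estradiol and 14.2 ± 2.18 FPKM in control (SD, n = 4 each), a log2 fold change of -0.03 ± 0.14 (SE) with a 95% interval of -0.34 to 0.28. It was -0.00335 in the 6 libraries and -0.11 within the pair. IGF2R made up 92.6 ± 0.482% of the summed FPKM of the 3 receptors with estradiol and 92.9 ± 0.396% in control (SD, n = 4 each).

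Of IRS1 and IRS2, IRS2 was the expressed substrate. It stood at 2.30, 2.41, 2.29 and 2.51 FPKM in estradiol libraries 1 to 4, against 3.02, 2.40, 2.35 and 2.57 FPKM in control libraries 1 to 4. Control replicate 1 was the highest, and the other 7 libraries lay between 2.29 and 2.57 FPKM. The log2 fold change was -0.08 ± 0.08 (SE, 95% interval -0.27 to 0.10), -0.13 in the 6 libraries and 0.07 within the pair. It was -0.11 with a pseudocount of 0.1 and -0.12 with limma-voom on recovered reads. Without control replicate 1 it was -0.0276. IRS1 had 3, 0, 0 and 1 reads in estradiol libraries 1 to 4, against 4, 2, 1 and 7 reads in control libraries 1 to 4, where 3 reads are worth between 0.00769 and 0.00918 FPKM depending on the library. Over the 8 libraries IRS2 had 6225 reads and IRS1 18, and the mean FPKM of IRS2 was 908 times that of IRS1 in estradiol, 285 times in control and 425 times over the 8 libraries. In single libraries the ratio ran from 294 to 952 in the 2 estradiol libraries with IRS1 reads and from 143 to 861 in the 4 control libraries, so its size is poorly fixed by 18 reads. The difference of IRS1 between the groups (4 reads with estradiol and 14 in control; exact permutation p = 0.114) was not detectable at this depth. In FPKM it was -0.00644 over all libraries, -0.00856 in the 6 and -8.88e-05 within the pair.

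IGFBP7 and IGFBP3 were the steadiest of the 10 genes between libraries. IGFBP7 stood at 106, 107, 96.9 and 95.4 FPKM in estradiol libraries 1 to 4, against 112, 101, 99.4 and 97.7 FPKM in control libraries 1 to 4, so its highest value was 1.17 times its lowest. The log2 fold change was -0.02 ± 0.09 (SE), with a 95% interval of -0.21 to 0.17, which on this scale is 0.867 to 1.13 times the control level. IGFBP3, the main IGF carrier of blood, stood at 39.8, 36.9, 37.6 and 35.7 FPKM with estradiol, against 42.0, 37.3, 35.1 and 40.2 FPKM in control. Its log2 fold change was -0.04 ± 0.09 (SE, 95% interval -0.24 to 0.16). In the 6 libraries the values were -0.00148 for IGFBP7 and -0.06 for IGFBP3, and within the pair -0.06 for IGFBP7 and 0.03 for IGFBP3.

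IGFBP4, a binding protein cut by the protease PAPPA, varied more. It stood at 30.3, 32.6, 28.6 and 21.1 FPKM in estradiol libraries 1 to 4, against 34.3, 29.3, 24.6 and 31.1 FPKM in control libraries 1 to 4, and its lowest libraries were estradiol replicate 4 and control replicate 3. The means were 28.2 ± 4.96 FPKM with estradiol and 29.8 ± 4.03 FPKM in control (SD, n = 4 each), with a log2 fold change of -0.09 ± 0.15 (SE, 95% interval -0.42 to 0.24). It was -0.05 in the 6 libraries and -0.21 within the pair.

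IGFBP2 and IGFBP5, neighbours on chromosome 2, were low in both groups. IGFBP2 stood at 0.412, 0.220, 0.199 and 0.227 FPKM in estradiol libraries 1 to 4, against 0.523, 0.357, 0.196 and 0.393 FPKM in control libraries 1 to 4, from 15 to 42 reads. Replicate 1 was the highest of each group, and the means were 0.265 ± 0.0990 FPKM with estradiol and 0.367 ± 0.135 FPKM in control (SD, n = 4 each; exact permutation p = 0.371). The difference, estradiol minus control, was -0.103 FPKM over all libraries, -0.147 in the 6 and 0.0315 within the pair. IGFBP5 stood at 0.498, 0.432, 0.391 and 0.389 FPKM with estradiol, against 0.424, 0.476, 0.291 and 0.325 FPKM in control, from 68 to 122 reads. Its means were 0.427 ± 0.0513 FPKM with estradiol and 0.379 ± 0.0859 FPKM in control (SD, n = 4 each; exact permutation p = 0.371). The difference was 0.0484 FPKM over all libraries, 0.0318 in the 6 and 0.0980 within the pair.

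IGFBP7 led the summed FPKM of the 5 binding proteins in both groups, with a share of 60.5 ± 1.37% with estradiol and 59.7 ± 1.97% in control (SD, n = 4 each). This sum leaves out IGFBP1 and IGFBP6, which averaged 55.5 and 27.3 FPKM over all libraries, against 38.1 FPKM for IGFBP3. IGFBP3 made up 22.4 ± 1.09% with estradiol and 22.5 ± 0.789% in control, and IGFBP4 16.7 ± 2.01% with estradiol and 17.3 ± 1.32% in control (SD, n = 4 each). IGFBP2 and IGFBP5 each made up at most 0.283% in any library. The ranges of the groups overlapped for all 5 shares, and no test was made on them.

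Of the ligands INS had no read, IGF2 had few and IGF1 was measured in every library at a low level. INS was at 0 reads in all 8 libraries, and a count of 0 allows up to 3 reads in each. IGF1 stood at 0.152, 0.154, 0.129 and 0.241 FPKM in estradiol libraries 1 to 4, against 0.202, 0.150, 0.324 and 0.159 FPKM in control libraries 1 to 4, from 63 to 151 reads, and was highest in the pair that stands apart. IGF2 ranged from 0.0078 to 0.0810 FPKM with estradiol and from 0.0242 to 0.0531 FPKM in control, from 2 to 21 reads. Neither passed the test (exact permutation p = 0.514 for IGF1 and 0.543 for IGF2). INSRR, an orphan relative of the insulin receptor, had at most 2 reads, IGFBPL1 at most 5 and IGFALS, a partner of IGFBP3 and IGF in blood, at most 3.

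Of the other binding proteins, IGFBP1 and IGFBP6 reached levels between those of IGF2R and IGFBP7. IGFBP1, which insulin represses through FOXO1 in liver, stood at 51.3, 46.6, 48.8 and 55.1 FPKM in estradiol libraries 1 to 4, against 68.7, 53.8, 63.6 and 55.8 FPKM in control libraries 1 to 4. Estradiol replicate 4 alone lay above the lowest control library. The log2 fold change was -0.25 ± 0.10 (SE, 95% interval -0.48 to -0.02), with an unadjusted p of 0.0348 by limma, and IGFBP1 was 1 of the 26 genes at that level. Over all genes its adjusted p by limma was 0.999989. In the 6 libraries the log2 fold change was -0.27 and within the pair -0.21. IGFBP6, which prefers IGF2, stood at 26.6 ± 4.09 FPKM with estradiol and 27.9 ± 5.44 FPKM in control (SD, n = 4 each; log2 fold change -0.06 ± 0.16 SE). Its log2 fold change was -0.13 in the 6 libraries and 0.16 within the pair.

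The rest of the pathway gave 0 calls as well. Of 75 genes in the 8 pathway lists, 59 were tested, 0 passed, 21 had positive and 38 negative log2 fold changes, and the median was -0.02. Over all 10720 tested genes the median was -0.000471 and 50.5% were negative. The 5 tested members had a median of -0.04, all 5 negative. Leaving out 1 library turned the sign for IGF2R, IGFBP3, IGFBP4 and IGFBP7, and for INSR among the genes under 1 FPKM. The 24 tested genes of PI3K, AKT and mTOR had a median of -0.00378, 11 positive and 13 negative, with PDPK1, the kinase that activates AKT, at 0.10 ± 0.09 and RHEB, the activator of mTOR, at 0.08 ± 0.11. The 12 FOXO factors and targets had a median of -0.05, 2 positive and 10 negative, with CITED2 at -0.11 ± 0.09 and BCL2L11, a cell death inducer, at -0.09 ± 0.08 (log2 fold change ± SE throughout). The value of BCL2L11 was -0.16 with a pseudocount of 0.1 and -0.17 with limma-voom on recovered reads.

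No gene that acts on binding proteins or on receptors passed the test. The 4 tested proteases and their inhibitors had a median of -0.08, all 4 negative. Among them were PAPPA2, a protease of IGFBP5, at -0.08 ± 0.07 and STC2, an inhibitor of PAPPA, at -0.10 ± 0.10, while PAPPA itself had 3 reads in estradiol replicate 2, 1 read in control replicate 1 and 0 in the other 6 libraries, a mean of 0.00131 FPKM over the 8. The 8 tested adaptors and inhibitors had a median of -0.02. Among them were GRB14 at -0.05 ± 0.10 and GRB10 at -0.03 ± 0.09, both adaptors that bind and inhibit the insulin receptor. With limma-voom on recovered reads PAPPA2 was at -0.12 and GRB14 at -0.07. The 7 tested genes of mannose 6-phosphate sorting, the second task of IGF2R, had a median of 0.00915, with M6PR, the smaller mannose 6-phosphate receptor, at 0.06 ± 0.08 and NAGPA, which uncovers the sugar tag, at -0.10 ± 0.16 and -0.17 in the 6 libraries. The IGF2 mRNA-binding proteins IGF2BP2 and IGF2BP3 stood at -0.01 ± 0.08 and 0.01 ± 0.11 (log2 fold change ± SE throughout).

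**Figure D3:**
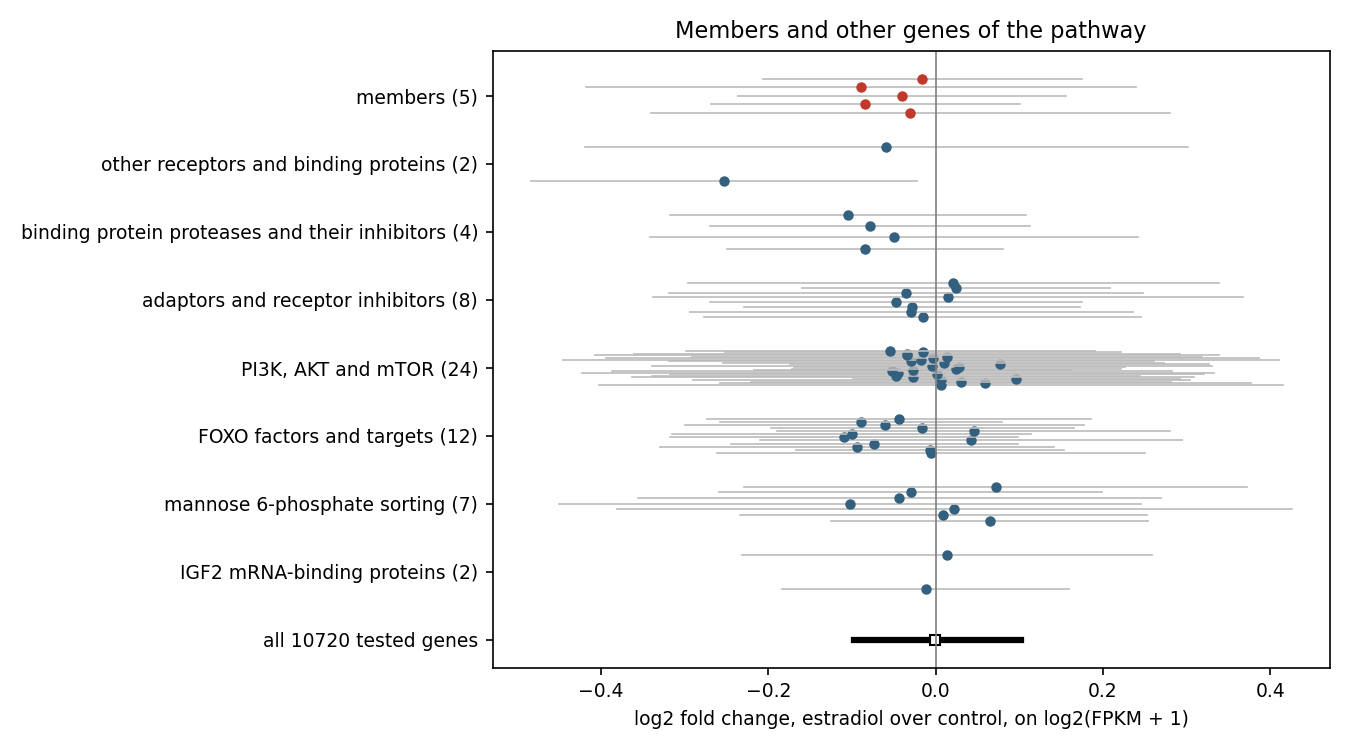
Log2 fold change, estradiol over control, on log2(FPKM + 1) for the tested members (red) and the tested genes of each pathway list (blue), with 95% intervals in grey and the number tested in brackets; the black bar spans the 5th to the 95th percentile of all tested genes (-0.10 to 0.10) and the square is their median. Every interval includes 0 except that of IGFBP1, the leftmost point.

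Differences between libraries exceeded those between groups for several members. Taking estradiol replicate 4 and control replicate 3 together, IGF2R averaged 11.3 FPKM, against 14.9 ± 1.199 FPKM in the other 6 (SD, n = 6), and IGFBP4 22.9 against 31.0 ± 2.12 FPKM. INSR averaged 0.434 against 0.589 ± 0.0724 FPKM and IGF1R 0.428 against 0.583 ± 0.0814 FPKM. IRS2 averaged 2.43 against 2.50 ± 0.276 FPKM, and IGFBP7 averaged 97.4 against 103 ± 5.81 FPKM. With the tested genes split into 3 equal classes by transcript GC content, the class of highest GC had a median shift of -0.41 in this pair on the log2 scale, and the class of lowest GC 0.37. IGFBP4, at 62.5% GC, shifted by -0.42 and IGF2R, at 49.4% GC, by -0.38. IGF2R lay past the median of -0.08 of its GC class, the middle one. It was within the 5th to 95th percentile of that class (-0.41 to 0.32). IRS2, at 58.7% GC, shifted by -0.03, outside the 5th to 95th percentile of its class, the one of highest GC (-0.52 to -0.18). The part of GC content in these values was not tested.

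**Figure D4:**
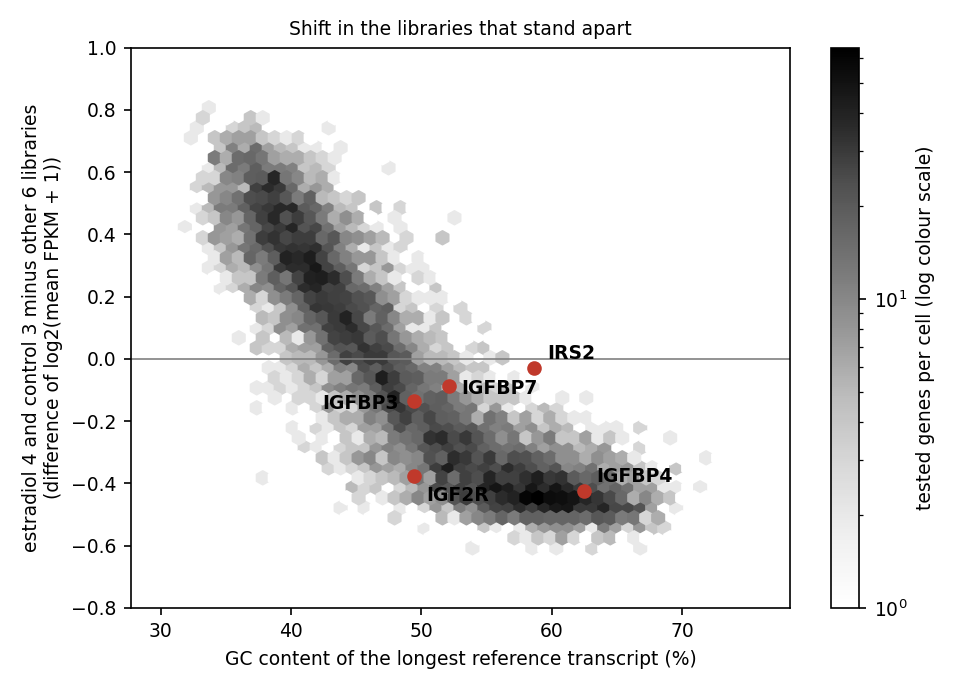
Difference of log2(mean FPKM + 1) between estradiol replicate 4 with control replicate 3 and the other 6 libraries, against the GC content of each gene's longest GENCODE transcript in %; grey cells count tested genes (log colour scale, 2 of 10250 genes lie outside the axis) and red points are the 5 tested members. IGFBP4 lies within the grey band, IRS2 above it and IGF2R in its lower part.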

How the data were processed

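The authors deposited 1 table of FPKM values of 34415 gene symbols in 8 library columns, all of which were used. Per the submitters' processing notes, fastp 0.20.1 and HTSeq were used; no aligner, genome build, annotation or strand setting is named. Reads were recovered from the FPKM steps of each gene. All 152348 values above 0 (100.0%) matched whole reads within a relative tolerance of 1e-06. The members and gene lists were chosen with earlier results of these data known. Genes with a mean of at least 1 FPKM were tested with limma 3.58.1 (R 4.3.3, mean-variance trend, log2(FPKM + 1), two-sided, Benjamini-Hochberg, threshold 0.05), and lower genes with exact permutation tests. The steps were checked on simulated data. In the limma check the noise was set without estradiol replicate 4 and control replicate 3, so it did not cover their shift. All 10 members were named, as were all ligands and the other binding proteins, and, of the other lists, the 2 genes with the smallest p. GC content came from GENCODE release 29 transcripts matched by symbol, for 95.6% of tested genes. Intervals cover the spread between libraries. Python 3.11.15 with numpy 2.4.6, pandas 2.3.3 and matplotlib 3.10.9 served the remaining steps. Alternatives were another pseudocount, other filters and scalings, recovered reads, a replicate block, a batch term and libraries left out.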

Additional observations from a re-analysis of the deposited data

Results flagged for a closer look

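IGFBP2 in estradiol replicate 1, at 0.412 FPKM from 33 reads, lay far above the other 3 estradiol libraries, which stood at 0.199 to 0.227 FPKM. The gap to the nearest was 0.867 of the range of the 4, above Dixon's 95% critical value for 4 samples. Of 20 combinations of gene and group checked this was the 1 that passed, and chance flags about 1 in 20.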

How the results depend on the processing

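Under 17 alternatives, 0 genes were called in each. The number at an unadjusted limma p under 0.05 depended on the pair that stands apart. It was 351 with a batch term for the pair and 416 without the pair, each of 10720 genes. It was 183 without control replicate 3 alone and 84 without estradiol replicate 4 alone. With the replicate block there were 0 genes, and 11 at an unadjusted p under 0.05. The numbers are not known to pair the libraries. The deviations of same-numbered libraries correlated at 0.616, 0.0728, -0.478 and -0.737, and 1 of 8 libraries correlated best with its own number. No member or pathway gene passed under the alternatives it was recomputed with. Members under 1 FPKM, IGF1 and IGF2 were not recomputed with the other pseudocount, the higher filter, limma-voom, the block or the batch term, and INS, INSRR, IGFBPL1, IGFALS and PAPPA were not recomputed. Without the pair, the exact test of genes under 1 FPKM cannot give a p under 0.1, so it could not pass. Of 144 member results under alternatives, 132 kept their direction. For members and pathway genes tested with limma, other filters, the replicate block and the batch term leave the log2 fold change unchanged. Those alternatives could not turn a direction, so the counts of directions overstate how stable these are. The difference of INSR became 0.00244 FPKM without the pair that stands apart. With 1 library left out, directions turned for INSR (-0.0635 to 0.0339 FPKM) and for the log2 fold changes of IGF2R (-0.11 to 0.0768), IGFBP3 (-0.0841 to 0.000795), IGFBP4 (-0.17 to 0.0377) and IGFBP7 (-0.0404 to 0.0260). Among pathway genes, recomputed by a choice made after seeing the data, 11 of 259 turned: IGFBP6 (-0.21 to 0.0177), GRB14 (-0.10 to 0.0206), GRB10 (-0.0751 to 0.0218), IGF2BP2 (-0.0400 to 0.00514) and IGF2BP3 (-0.0626 to 0.0846). IGFBP1 stayed between -0.31 and -0.19, with an unadjusted p under 0.05 in 9 of 17 and adjusted p from 0.791 to 0.999995. Neighbours that differed numbered 7 to 8 of 9 without 1 library and 7 under the other alternatives. The control libraries alone were not tested for order. Directions turned without estradiol replicate 4 for INSR, IGF2R, IGFBP4, IGFBP7, IGFBP6, GRB10 and IGF2BP3, without estradiol replicate 3 for IGFBP7 and without estradiol replicate 2 for IGF2BP2. They turned without control replicate 1 for INSR, IGFBP3, IGFBP7, IGFBP6, IGF2BP2 and IGF2BP3, without control replicate 2 for IGF2R and IGF2BP3, without control replicate 3 for GRB14 and without control replicate 4 for INSR, IGF2R, IGF2BP2 and IGF2BP3. The cause was not tested. Of the members, those under 1 FPKM had the fewest reads. IRS1 was lowest, with 18 over the 8 libraries, and is limited by depth.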
